A study of Homo sapiens with 6 samples.

Results

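The 40 genes described here encode proteins of the lysosome and the transcription factors that control lysosomal genes. They were followed in PANC-1, a human cell line from a pancreatic carcinoma, grown with or without maslinic acid (MA), a triterpenoid found in olives. Members were taken by gene name from the deposited expression table: 28 enzymes, 2 activator proteins, 2 sterol transfer proteins, 5 membrane proteins and the 3 transcription factors TFEB, TFE3 and MITF. All 40 were present among the 58825 genes of the table, each with 1 identifier, and 37 of them carried the KEGG term Lysosome in the deposited annotation, the exceptions being the 3 transcription factors. RNA was sequenced from 6 samples, 3 exposed for 24 h to MA at 40 μM, named MA PANC-1 1 to 3, and 3 kept at 0 μM over the same time, named PANC-1 1 to 3. Nothing else differed between the groups in the labels. The study calls the samples of a group biological replicates and gives DMSO as the vehicle of its cell treatments, which the labels do not state, and p-values measure the spread between these samples. PANC-1 is 1 line, and nothing was tested outside it.

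The lysosome is the acidic compartment in which cells break down proteins, sugar chains, lipids and nucleic acids. Its hydrolases work at low pH, which a proton pump, the V-ATPase, maintains, and the products leave through transporters in the lysosomal membrane. TFEB, TFE3 and MITF belong to 1 family of transcription factors that bind E-box sequences with the core CACGTG, and the kinase complex mTORC1 holds TFEB and TFE3 in the cytoplasm by phosphorylation. Pancreatic carcinoma cells are known to depend on lysosomal breakdown for nutrients.

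The deposited values are FPKM, a level per length of the gene and per sequencing depth, and an estimated count for each gene and sample. Wherever 3 values of a group follow each other, they are those of its samples 1, 2 and 3. Estimated counts totalled 56978375, 63984133 and 58181114 with MA and 70275355, 65607669 and 59422939 without. They outnumber the sequenced reads that the study lists, so they are not the sequencing depth. MA PANC-1 2 stood apart from the other samples. On the first principal component, which held 26.4% of the variance, it lay at -73.6, against -29.5 and 16.2 in MA PANC-1 1 and 3 and from 18.0 to 44.9 in the PANC-1 samples. Its count-weighted GC content was 51.2%, against 49.8% to 50.3% in the other 5 samples, and the cause of this difference was not tested. Several values are therefore also given without MA PANC-1 2, and some with a GC trend fitted per library taken out. The epithelial keratins KRT8 and KRT18 stood at a mean of 213 ± 10.4 and 325 ± 12.3 FPKM (SD, n = 3) in PANC-1, KRT7 at 2.03 ± 0.232 FPKM, and KRT19 and EPCAM under 0.1 FPKM on average. The summed FPKM of 5 macrophage markers, cells rich in lysosomes, came to 0.124, 0.0672 and 0.0957 with MA and 0.0790, 0.223 and 0.147 without, with CD14 at most 0.101, CSF1R at most 0.124 and PTPRC at most 0.0120 in any sample, and with AIF1 and CD163 listed at 0.0001 throughout. Acinar markers summed to at most 0.00625 FPKM and islet markers to 0.0003 FPKM in any sample, CDKN2A, which PANC-1 is known to lack, reached at most 0.0612 FPKM, and of the fibroblast markers COL1A1 was the most abundant, at 3.58 ± 0.935 FPKM with MA and 4.51 ± 1.28 FPKM without (SD, n = 3), with DCN near 0.

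The lysosomal genes were well expressed, and most of them differed little between the groups. The median over the 39 members that could be tested was 13.4 FPKM, against 2.49 FPKM over all 17774 genes tested. CTSS, the protease cathepsin S, was the member left out, at 0.0136, 0.0525 and 0.0001 FPKM with MA and 0.0986, 0.0001 and 0.124 FPKM without, since genes were tested from a mean of 0.1 FPKM. By edgeR's quasi-likelihood test, 8 of 39 members (20.5%) had an unadjusted p under 0.05, and 11.2% of all genes tested did. SMPD1, PLA2G15, NPC1, NPC2, CTSH, PSAP and GUSB were higher in MA treated PANC-1, where the share over all genes was 5.37%, and CTSC was lower, where it was 5.86%. In bulk RNA a gene expressed in fewer cells and a gene with less RNA per cell cannot be told apart. With DEGs taken as genes that differed 2-fold or more in either direction (a ratio down to 0.5 when lower) at an unadjusted p under 0.05, PLA2G15 was the only member called, beside 1.92% of all genes (0.675% higher and 1.25% lower). After Benjamini-Hochberg adjustment over all genes none of the members passed 0.05 by edgeR (0.0394% of all genes did, 0.0225% higher and 0.0169% lower). The smallest adjusted p by edgeR was 0.213 for SMPD1. DESeq2 put 2 members, SMPD1 and PLA2G15, past that threshold, beside 263 of all 17774 genes.

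Of the 39 members, 27 (69.2%) had a log2 fold change above 0, beside 49.8% of all genes tested. The median log2 fold change of the members was 0.11, against 0.00 over all genes tested. Without MA PANC-1 2 this median was 0.06 and 7 members had an unadjusted p under 0.05, while 10 members changed sign, namely ARSA, ARSB, GLB1, LAMP1, LAMP2, LIPA, MAN2B1, MCOLN1, MITF and TFEB, none of which passed the test with it. Once a GC trend fitted per library had been taken out, 11 members changed sign, ARSA, ASAH1, CTSL, GLB1, IDS, LAMP2, LIPA, MAN2B1, MANBA, MCOLN1 and MITF. Signs changed both ways, so that 25 members were above 0 without MA PANC-1 2 and 28 with the GC trend removed. In the latter fit the median log2 fold change of the members was 0.08. The share of all genes above 0 is not given for these 2 fits. Leaving out PANC-1 1 brought the number of members with a p under 0.05 to 3, leaving out PANC-1 3 to 5, and leaving out MA PANC-1 3 to 12. The share of all genes with such a p is not given for fits without a sample, here or below. Whether these counts moved more than those of all genes was therefore not tested. DEGs over all genes numbered 358, 326 and 534 in these 3 settings, against 342 over all samples. In 9 members (23.1%) the FPKM of the groups did not overlap, 8 of them higher with MA and 1 lower, and this was so for 19.9% of all genes, 8.79% higher and 11.1% lower. The members took 0.582%, 0.578% and 0.504% of the summed FPKM with MA and 0.539%, 0.534% and 0.487% without, so that these ranges overlapped.

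**Figure D1:**
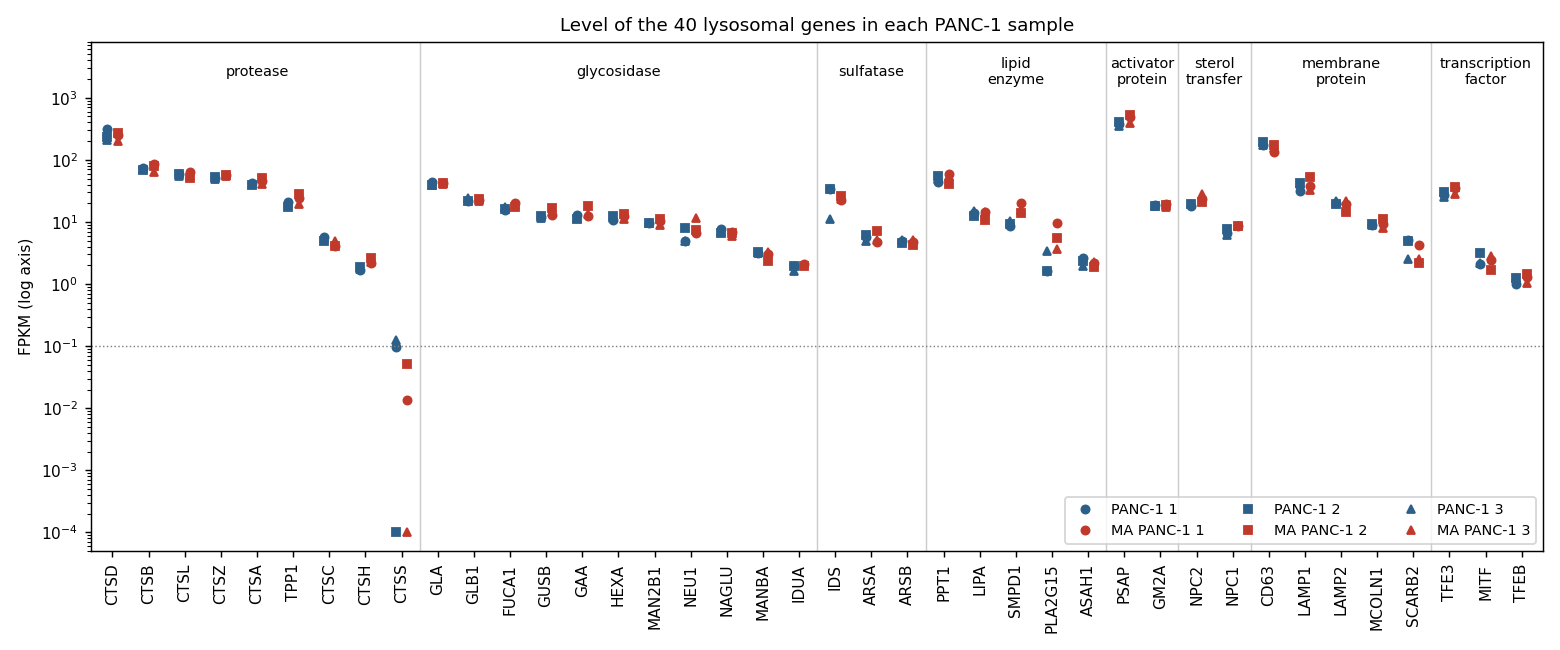
FPKM (log axis) of the 40 lysosomal genes in each sample, grouped by role, with PANC-1 samples in blue, MA PANC-1 samples in red and the dotted line at 0.1 FPKM, the limit for testing. PSAP, CTSD and CD63 lie above 100 FPKM in every sample, CTSS lies near or under the limit, and the colours of most genes lie within the same range.

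The transcription factors were considered first, because lysosomal genes are known targets of this family. TFE3 was the most abundant of the 3, and TFEB the least. TFEB was at 1.31, 1.43 and 1.03 FPKM with MA and at 0.985, 1.26 and 1.27 FPKM without. The groups overlapped, the lowest value of all being a control and the next an MA sample, and the log2 fold change was 0.14 (95% interval -0.36 to 0.64, adjusted p = 0.814). Leaving out MA PANC-1 2 brought it to -0.00, and leaving out MA PANC-1 3 instead gave 0.29. MITF, known as the regulator of melanocyte genes, was at 2.44, 1.70 and 2.86 FPKM with MA and at 2.08, 3.12 and 2.16 FPKM without. It overlapped as fully, with a log2 fold change of -0.05 (95% interval -0.58 to 0.49), which turned to 0.11 without MA PANC-1 2. TFE3 was at 34.6, 35.9 and 28.4 FPKM with MA and at 27.5, 30.3 and 25.2 FPKM without, MA PANC-1 3 lying within the control range and the others above it. Its log2 fold change was 0.29 ± 0.14 (SE) with an edgeR p of 0.0688 before and 0.469 after adjustment. Without MA PANC-1 3 it was 0.41 with a p of 0.0116, and without MA PANC-1 2 it was 0.19 with a p of 0.189. With the replicate number as a block the edgeR p of TFE3 was 0.0195 (adjusted p 0.389). These values are levels of mRNA, and the place of the proteins in the cell was not measured.

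The E-box through which these factors act was looked for in the promoter windows of RefSeq (GRCh38.p14), which run from 250 bases before to 50 bases after a start site. Of the 40 members 31 had such a window, and ARSA, ASAH1, CTSB, CTSS, HEXA, LAMP2, MANBA, NAGLU and PSAP had none. The core CACGTG, which reads the same on both strands, occurred in 8 of 31 members (25.8%). It occurred in 8.77% of all 27305 genes with such a window, or 10.9% of the protein-coding ones. Shares of all genes in this paragraph are over genes with a window. The longer TCACGTGA, which contains the core, occurred in 4 members (12.9%), CTSA, GAA, LAMP1 and MCOLN1, and in 1.18% of all genes, or 1.65% of the protein-coding ones. The 10-base palindrome that adds a G before and a C after it, known as the CLEAR element, occurred in GAA and MCOLN1 (6.45%) and in 0.421% of all genes, or 0.638% of the protein-coding ones. Lysosomal genes outside the set also held these letters, the core in 8 and TCACGTGA in 5 of 20 further hydrolases, and in 4 and 2 of 17 V-ATPase subunits. The other members with the core were ARSB, CD63, CTSD and NEU1. The stretches below show the 3 members with the most matches or the longest form, and then the 2 members with the smallest p, each from 200 bases before the RefSeq start site and written 5′ to 3′ on the plus strand of GRCh38, with the matches in capitals. MCOLN1 is shown from chr19:7522424-7522633, GAA from chr17:80101381-80101565, LAMP1 from chr13:113297039-113297248, SMPD1 from chr11:6390274-6390449 and PLA2G15 from chr16:68245173-68245313.
MCOLN1: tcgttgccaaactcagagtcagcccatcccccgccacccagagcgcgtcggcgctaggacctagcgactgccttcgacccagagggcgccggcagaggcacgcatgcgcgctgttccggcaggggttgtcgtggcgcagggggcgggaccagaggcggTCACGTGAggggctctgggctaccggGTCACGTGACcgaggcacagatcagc
GAA: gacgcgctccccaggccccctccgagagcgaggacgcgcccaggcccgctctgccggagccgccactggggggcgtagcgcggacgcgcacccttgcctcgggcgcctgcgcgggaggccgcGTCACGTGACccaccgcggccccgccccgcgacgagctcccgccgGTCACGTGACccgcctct
LAMP1: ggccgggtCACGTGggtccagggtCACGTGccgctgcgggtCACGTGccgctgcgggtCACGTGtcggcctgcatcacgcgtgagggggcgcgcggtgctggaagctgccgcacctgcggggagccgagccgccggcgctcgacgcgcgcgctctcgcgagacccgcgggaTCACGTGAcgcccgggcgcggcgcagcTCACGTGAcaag
SMPD1: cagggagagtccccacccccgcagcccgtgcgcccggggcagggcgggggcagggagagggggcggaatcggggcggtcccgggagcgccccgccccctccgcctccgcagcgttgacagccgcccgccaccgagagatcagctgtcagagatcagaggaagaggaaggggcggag
PLA2G15: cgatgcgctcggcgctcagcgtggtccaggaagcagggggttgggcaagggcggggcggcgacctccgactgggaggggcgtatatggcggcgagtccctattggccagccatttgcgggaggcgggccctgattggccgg
In MCOLN1 the matches began 42 and 16 bases before the RefSeq start site, in GAA 78 and 33 bases before it, and in LAMP1 there were 6 matches, the nearest beginning 2 bases before it. The windows of these 3 genes and of CTSA were among 12 of 47 whose last 50 bases were not matched to a GENCODE 29 transcript. The windows of SMPD1 and PLA2G15 did not contain these letters, and neither did those of NPC1, NPC2, CTSH, GUSB and CTSC. PSAP, the remaining member with an unadjusted p under 0.05, had no window. Only exact matches were looked for, and sites outside the windows or with other letters were not. A match is a string of letters, and binding was not measured.

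The 4 members with the TCACGTGA form had intervals that included 0. MCOLN1, the calcium channel of the lysosomal membrane, was at 9.30, 11.0 and 8.12 FPKM with MA and at 9.00, 9.22 and 8.84 FPKM without. MA PANC-1 2 was its highest sample and MA PANC-1 3 its lowest, and the log2 fold change was 0.11 (95% interval -0.24 to 0.47), turning to -0.05 without MA PANC-1 2. PNPLA6, which overlaps MCOLN1 on the same strand, held 6811 to 10076 estimated counts per sample, so that the counts of MCOLN1 (2241 to 3332) depend on how reads were assigned. GAA, the acid alpha-glucosidase that degrades glycogen, had a log2 fold change of 0.34 (95% interval -0.07 to 0.75) and CTSA, the protective protein of the sialidase complex, one of 0.22 (95% interval -0.07 to 0.51). Both shrank without MA PANC-1 2, to 0.12 and 0.09. GAA was at 0.46 without MA PANC-1 1 (edgeR p of 0.0416) and CTSA at 0.32 without MA PANC-1 3 (edgeR p of 0.0238). LAMP1 is described with the membrane proteins.

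Enzymes that act on lipids held the largest differences. There were 5 of them. SMPD1 and PLA2G15 (40.0%, beside 11.2% of all genes) were higher with MA, while PPT1, LIPA and ASAH1 did not pass the test.

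SMPD1 (ENSG00000166311, chromosome 11, 6390440 to 6394998) encodes acid sphingomyelinase, which cleaves sphingomyelin to ceramide. It was at 20.0, 14.0 and 15.6 FPKM with MA and at 8.70, 9.40 and 10.4 FPKM without. Every MA sample lay above every control, with MA PANC-1 1 the highest. The means were 16.6 ± 3.11 and 9.49 ± 0.842 FPKM (SD, n = 3), and the log2 fold change by edgeR was 0.83 ± 0.15 (SE), a fold change of 1.78 (95% interval 1.41 to 2.26) with a p of 0.000643 and an adjusted p of 0.213. With any 1 sample left out the log2 fold change stayed between 0.69 and 0.91, and without MA PANC-1 2 it was 0.91. SMPD1 kept an unadjusted p under 0.05 in all 19 alternative settings.

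PLA2G15 (ENSG00000103066, chromosome 16, 68245304 to 68261058) encodes the lysosomal phospholipase A2. It was at 9.55, 5.62 and 3.72 FPKM with MA and at 1.60, 1.65 and 3.41 FPKM without, from estimated counts of 2887, 1920 and 1156 against 603, 579 and 1079. The groups did not overlap, but MA PANC-1 3 and PANC-1 3 were close to each other, and the MA samples differed among themselves more than any other called member. The log2 fold change by edgeR was 1.54 ± 0.42 (SE), a fold change of 2.90, with a 95% interval of 0.55 to 2.53 on the log2 scale, a p of 0.00764 and an adjusted p of 0.388. It was 1.14 without MA PANC-1 1, 1.58 without MA PANC-1 2 and, with PANC-1 3 left out, 1.98, and the p stayed under 0.05 in all 19 alternative settings. The study picked PLA2G15 for qRT-PCR from its own calls on these samples, so that its place among the members is not independent of this contrast.

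The other lipid enzymes lay within the spread of the samples. PPT1, which removes palmitate from proteins, had a log2 fold change of 0.11 (95% interval -0.22 to 0.43). LIPA, the acid lipase for cholesteryl esters and triglycerides, had one of -0.02 (95% interval -0.32 to 0.27), and ASAH1, the acid ceramidase that acts on the product of SMPD1, one of -0.09 (95% interval -0.40 to 0.22). Without MA PANC-1 2 PPT1 was at 0.22, LIPA at 0.08 and ASAH1 at -0.05. ASAH1 turned to 0.01 without PANC-1 1 and to 0.18 with the GC trend removed.

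**Figure D2:**
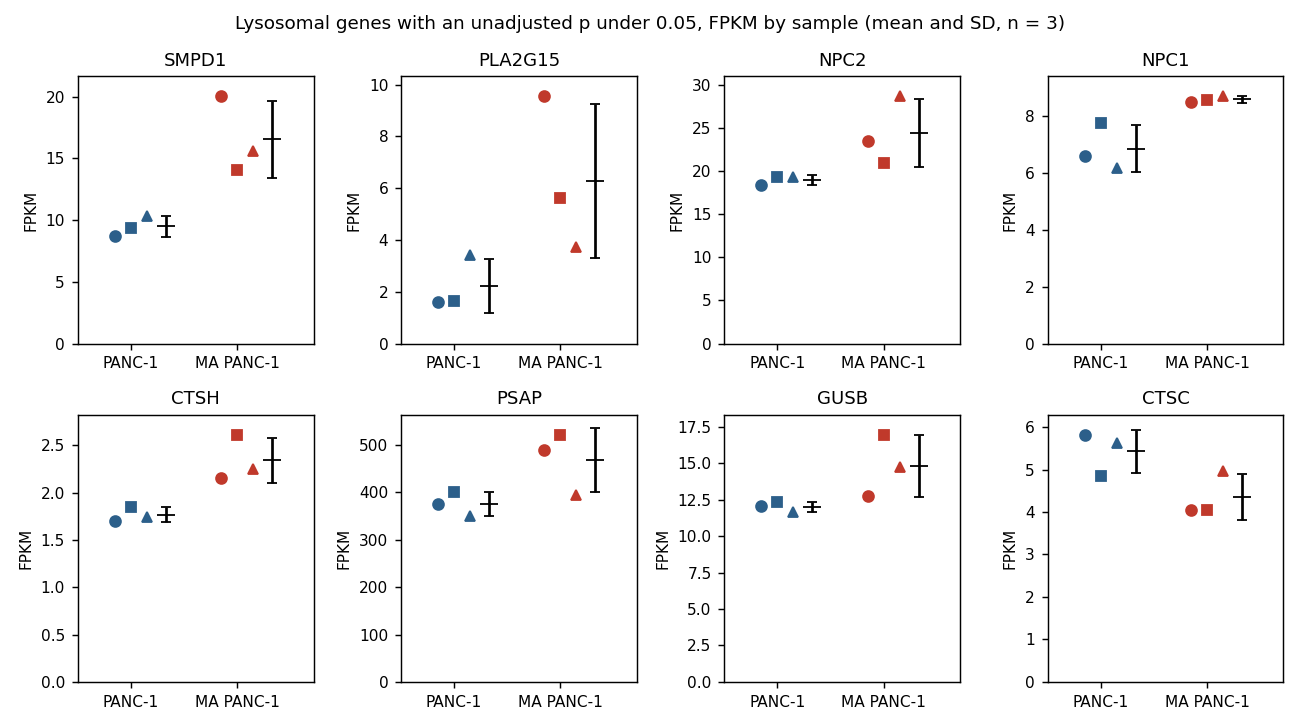
FPKM by sample of the 8 lysosomal genes with an unadjusted p under 0.05, PANC-1 in blue and MA PANC-1 in red (circle, square and triangle for samples 1, 2 and 3), with the mean and SD of 3 samples in black. The groups are apart in SMPD1, PLA2G15, NPC2, NPC1, CTSH and GUSB, and a sample of each group overlaps in PSAP and CTSC.

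Both proteins that pass cholesterol out of the lysosome were higher with MA. NPC2 (chromosome 14, 74476192 to 74493347), the soluble carrier, was at 23.5, 20.9 and 28.6 FPKM with MA and at 18.3, 19.3 and 19.3 FPKM without. NPC1 (chromosome 18, 23506184 to 23576947), the membrane protein that takes cholesterol over from NPC2, was at 8.48, 8.58 and 8.70 FPKM with MA and at 6.62, 7.77 and 6.18 FPKM without. In neither gene did the groups overlap. Of all genes 8.79% were apart in this direction, and 5.37% were higher at an unadjusted p under 0.05. The NPC1 values of the MA samples differed by less than those of the controls. The log2 fold change by edgeR was 0.39 ± 0.12 (SE) for NPC2, with a p of 0.0114, and 0.36 ± 0.11 (SE) for NPC1, with a p of 0.0152 (adjusted p 0.388 and 0.411). NPC2 kept a p under 0.05 in all 19 alternatives and NPC1 in 17, its p being 0.0575 without PANC-1 1 and 0.0578 without PANC-1 3. Without MA PANC-1 2 they were at 0.45 and 0.32.

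The activator proteins present lipids to the hydrolases. PSAP, the precursor of the saposins and the most abundant member, was at 490, 522 and 394 FPKM with MA and at 375, 402 and 350 FPKM without. MA PANC-1 3 lay below PANC-1 2, so that the groups overlapped, and the log2 fold change was 0.36 ± 0.14 (SE) with an edgeR p of 0.0379 (adjusted p 0.435). The p was under 0.05 in 15 of 19 alternatives, and missed it without MA PANC-1 1 (0.0876), PANC-1 1 (0.0900), PANC-1 3 (0.120) and MA PANC-1 2 (0.101), where the log2 fold change was 0.23. GM2A, the activator of ganglioside breakdown, had a log2 fold change of 0.08 (95% interval -0.14 to 0.30), or 0.02 without MA PANC-1 2.

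Among the 9 proteases, 8 of them tested, CTSH was higher with MA and CTSC was lower. CTSH, cathepsin H, was at 2.15, 2.61 and 2.25 FPKM with MA and at 1.70, 1.85 and 1.74 FPKM without. All MA samples were above the controls, and the log2 fold change by edgeR was 0.45 ± 0.15 (SE) with a p of 0.0227 (adjusted p 0.429). Without MA PANC-1 2 it was 0.32 with a p of 0.0391, and the p missed the threshold without PANC-1 1 (0.0742) and without PANC-1 3 (0.0612). CTSC, cathepsin C, which activates granule proteases, was at 4.04, 4.04 and 4.97 FPKM with MA and at 5.82, 4.85 and 5.62 FPKM without. MA PANC-1 3 lay above PANC-1 2, and the log2 fold change was -0.28 ± 0.12 (SE) with an edgeR p of 0.0459 (adjusted p 0.441). It was the least stable of the 8 called members, with a p under 0.05 in 8 of 19 alternatives and a log2 fold change of -0.03 once the GC trend of each library was removed.

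The abundant cathepsins did not pass the test over all 6 samples. CTSD, the aspartic protease cathepsin D, was at 248, 268 and 201 FPKM with MA and at 309, 232 and 212 FPKM without. It had its highest value in a control and its lowest in an MA sample, and the log2 fold change was -0.03 (95% interval -0.46 to 0.40), or -0.16 without MA PANC-1 2. CTSB was at 87.2, 80.8 and 63.9 FPKM with MA and at 73.7, 67.4 and 72.4 FPKM without, where MA PANC-1 3 was below all controls and the others above them (log2 fold change 0.16, 95% interval -0.16 to 0.48). CTSL was at 64.0, 51.4 and 55.0 FPKM with MA and at 58.1, 59.9 and 55.7 FPKM without, the controls lying inside the range of the MA samples (log2 fold change 0.00, 95% interval -0.22 to 0.23). Both are cysteine proteases of broad activity. CTSZ, at 54.5 to 57.9 FPKM with MA and 48.8 to 53.1 FPKM without, did not overlap between the groups but had a log2 fold change of 0.19 with an edgeR p of 0.0805 (adjusted p 0.481). TPP1, a tripeptidyl peptidase, had a log2 fold change of 0.33 (95% interval -0.06 to 0.72), which was 0.15 without MA PANC-1 2. CTSB was then at 0.08 with an edgeR p of 0.566. Without MA PANC-1 3, CTSB was at 0.30, CTSZ at 0.23 and TPP1 at 0.48, with an edgeR p of 0.0118, 0.0483 and 0.0101.

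The 11 glycosidases, which trim sugars from glycoproteins and glycolipids, contained 1 called gene (9.09%, beside 11.2% of all genes). Of the 11, 9 (81.8%) had a log2 fold change above 0, as did 49.8% of all genes. GUSB, beta-glucuronidase, was at 12.8, 17.0 and 14.7 FPKM with MA and at 12.1, 12.3 and 11.6 FPKM without. The MA samples were above the controls, MA PANC-1 1 only just, and the log2 fold change by edgeR was 0.34 ± 0.14 (SE) with a p of 0.0449 (adjusted p 0.441). It was 0.19 with a p of 0.0817 without MA PANC-1 2, the highest sample. The p of GUSB was under 0.05 in 11 of 19 alternatives, and of those that leave out 1 sample only without MA PANC-1 1 (0.0161). NEU1, the lysosomal sialidase, had the larger log2 fold change of 0.55 but a wide 95% interval of -0.07 to 1.17. Its values were 6.74, 7.32 and 11.7 FPKM with MA and 5.01, 7.96 and 5.00 FPKM without, so that MA PANC-1 3 alone lay above all controls and PANC-1 2 lay above the other MA samples. The p of NEU1 by edgeR was 0.0161 without PANC-1 2, where its log2 fold change was 0.81, and 0.0413 without MA PANC-1 1. Without MA PANC-1 3 it fell to 0.29 with a p of 0.267. DESeq2 gave NEU1 a p of 0.0345 over all 6 samples. FUCA1, the fucosidase, was at 0.23 (95% interval -0.01 to 0.47), and at 0.24 with an edgeR p of 0.0448 without MA PANC-1 2, and IDUA, the iduronidase of heparan and dermatan sulphate breakdown, at 0.18 (95% interval -0.18 to 0.55) with no overlap of the groups. The remaining glycosidases HEXA, MAN2B1, GLA, GLB1, NAGLU and MANBA lay between -0.11 and 0.16 on the log2 scale. The ends of this range, MANBA and HEXA, were at -0.01 and 0.06 without MA PANC-1 2. NAGLU, at -0.10 over all samples, was then at -0.15. With the GC trend removed NAGLU was at -0.24 with an edgeR p of 0.0629, or 0.0436 with the replicate number as a block as well.

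None of the 3 sulfatases passed the test. IDS, which removes sulphate from iduronate, was at 22.7, 26.0 and 23.4 FPKM with MA and at 33.9, 33.7 and 11.0 FPKM without. PANC-1 3 was far below the other controls, and the MA samples lay between. The log2 fold change was -0.09 ± 0.39 (SE), the standard error being the widest among the enzymes other than PLA2G15, and without PANC-1 3 it was -0.45 with a p of 0.0108. The sign turned without PANC-1 1 or PANC-1 2, each giving 0.14, and without MA PANC-1 2 the value was -0.19. A transcript on the same strand, AC244197 (ENSG00000241489), overlaps IDS and held 2088, 42 and 1972 estimated counts with MA and 38, 47 and 64 without, and when overlapping genes were summed the log2 fold change of IDS was 0.03. ARSA and ARSB, the arylsulfatases, were at 0.09 and -0.03.

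**Figure D3:**
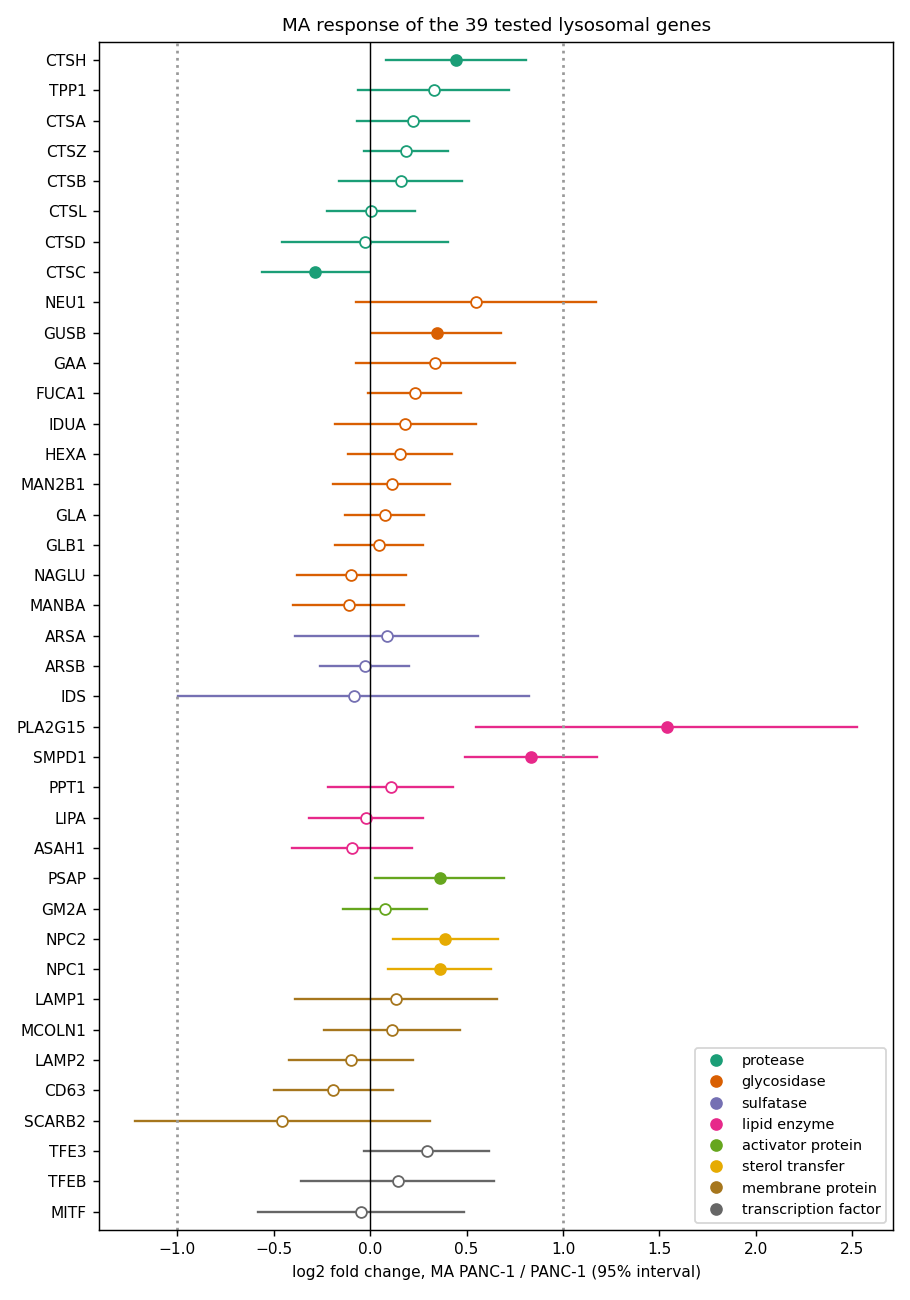
Log2 fold change of MA PANC-1 over PANC-1 (edgeR, bars are 95% intervals) of the 39 tested lysosomal genes, coloured by role, filled where the unadjusted p is under 0.05 and with dotted lines at a 2-fold change. PLA2G15 is the only gene past a dotted line, and the intervals of 31 genes include 0.

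The 5 membrane proteins did not pass the test. Of them 3 had negative log2 fold changes and 2 (40.0%) had one above 0, as did 49.8% of all genes. LAMP1, a main glycoprotein of the lysosomal membrane, was at 37.7, 52.6 and 32.5 FPKM with MA and at 31.3, 43.0 and 41.2 FPKM without. The groups overlapped, and the sign of the log2 fold change turned with 1 sample, from 0.14 over all samples to -0.14 without MA PANC-1 2. LAMP2, which also serves chaperone-mediated autophagy, was at 19.5, 14.3 and 21.8 FPKM with MA and at 19.9, 19.2 and 21.6 FPKM without. MA PANC-1 2 was its lowest sample, and the log2 fold change was -0.10 (95% interval -0.42 to 0.22). It turned to 0.03 without MA PANC-1 2, and to 0.15 with an edgeR p of 0.0266 once the GC trend of each library was removed.

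CD63, a tetraspanin of late endosomes and exosomes, was at 134, 174 and 155 FPKM with MA and at 176, 193 and 175 FPKM without. It was the only member whose MA samples all lay below the controls, although MA PANC-1 2 and PANC-1 3 were nearly equal. Its log2 fold change was -0.19 ± 0.13 (SE) with an edgeR p of 0.188 (adjusted p 0.588), and without MA PANC-1 2 it was -0.33 with a p of 0.0124. With the GC trend removed it was -0.29 with an edgeR p of 0.0174. SCARB2, the receptor that carries glucocerebrosidase to the lysosome, was at 4.29, 2.19 and 2.54 FPKM with MA and at 5.05, 5.00 and 2.55 FPKM without. PANC-1 3 lay with the lower MA samples, and the log2 fold change was -0.45 (95% interval -1.22 to 0.31). It was -0.72 with an edgeR p of 0.0360 without PANC-1 3, -0.78 with a p of 0.0419 without MA PANC-1 1 and -0.30 without MA PANC-1 2.

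Among themselves, the members varied more in the MA samples than in the controls. The median coefficient of variation of the tested members was 14.2% with MA and 7.20% without. Over all genes tested within the same range of FPKM it was 14.1% and 8.07%. The median log2 difference of the members from the PANC-1 mean was 0.10, 0.16 and 0.02 in MA PANC-1 1, 2 and 3, against -0.01, -0.10 and 0.01 over all genes. Of the 39 members, 53.8%, 53.8% and 35.9% lay above the range of the controls in MA PANC-1 1, 2 and 3, beside 29.6%, 28.2% and 28.8% of all genes tested. Below that range lay 10.3%, 30.8% and 23.1% of the members, beside 30.9%, 41.8% and 26.5% of all genes.

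**Figure D4:**
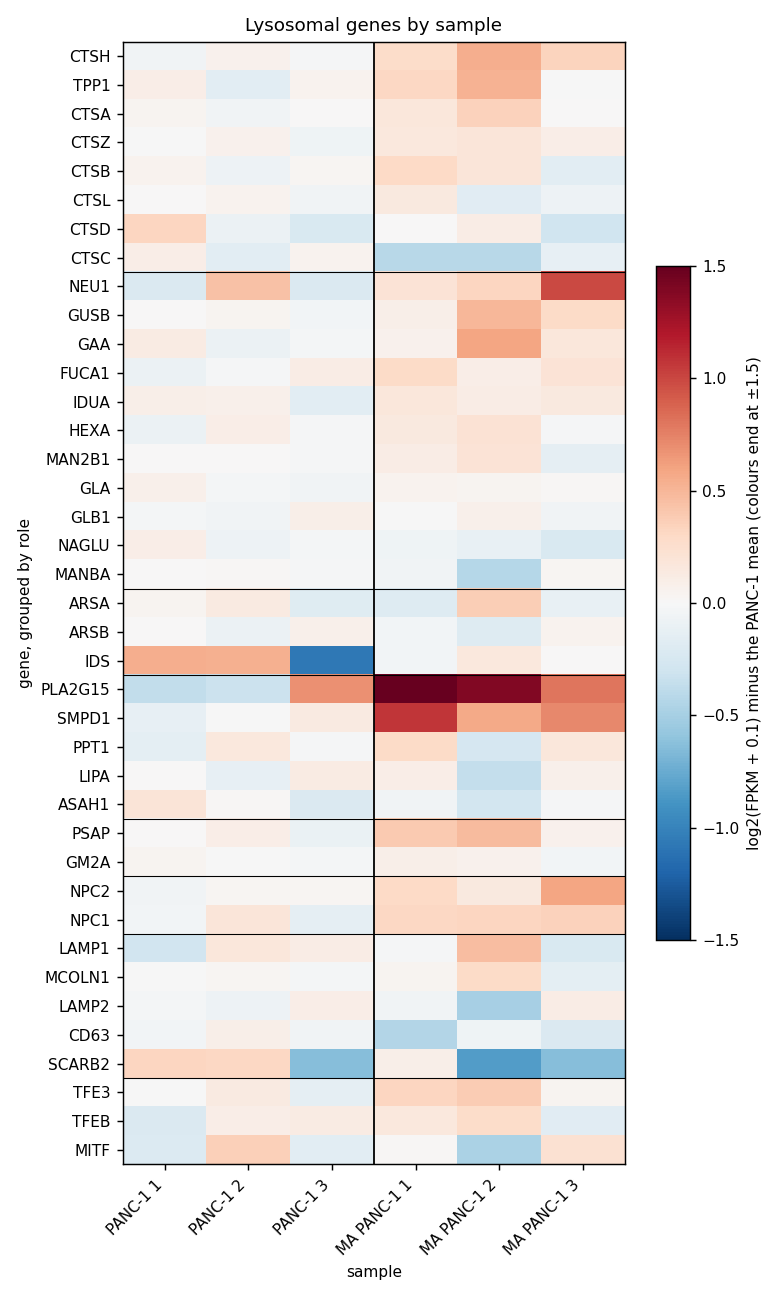
Log2(FPKM + 0.1) of each tested lysosomal gene minus its PANC-1 mean, by sample and grouped by role, red above and blue below the control mean. PLA2G15 and SMPD1 are red in the 3 MA samples, IDS and SCARB2 are blue in PANC-1 3, and MA PANC-1 2 is red in TPP1 and CTSH and blue in LAMP2 and SCARB2.

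The rest of the lysosomal machinery was read from 5 lists holding 117 genes. Of the V-ATPase subunits 9 of 22 tested (40.9%) had an unadjusted p under 0.05, 8 higher and 1 lower, beside 11.2% of all genes, and their median log2 fold change was 0.15. ATP6V0D1, a subunit of the membrane sector, was at 12.6, 13.0 and 12.4 FPKM with MA and at 10.2, 9.98 and 10.1 FPKM without. The groups were well apart with little spread (log2 fold change 0.37 ± 0.09, SE, edgeR p of 0.00359, adjusted p 0.375). ATP6V0B, of the same sector, was at 40.7, 38.5 and 31.7 FPKM with MA and at 28.4, 25.7 and 27.6 FPKM without (0.48 ± 0.12, edgeR p of 0.00570, adjusted p 0.388). ATP6V0A2 was at 2.04, 1.84 and 2.39 FPKM with MA and at 1.54, 1.69 and 1.69 FPKM without (0.38 ± 0.12, edgeR p of 0.0136, adjusted p 0.394). The most abundant subunit, ATP6V1F of the ATP-cleaving sector, was at 131, 140 and 113 FPKM with MA and at 106, 107 and 109 FPKM without (0.30 ± 0.12, edgeR p of 0.0433, adjusted p 0.439). All MA samples of these 4 subunits, 3 of them named for their small p, lay above all controls. Of the 22 tested subunits 8 were apart in this direction and 1 in the other, beside 8.79% and 11.1% of all genes. With 1 sample left out, ATP6V0D1 and ATP6V0B stayed under 0.05 each time, ATP6V0A2 missed it without PANC-1 1 (0.0595), and ATP6V1F passed only without MA PANC-1 3 (0.00638). The other higher subunits were ATP6V1D, ATP6AP1, ATP6V0E1 and ATP6V0E2, and ATP6V1H was lower. Without MA PANC-1 2 the count was 5 higher and 0 lower, without MA PANC-1 1 it was 4 higher and 1 lower, and without PANC-1 1 it was 3 higher and 0 lower. With the GC trend removed it was 11 higher and 1 lower. None passed the adjusted threshold by edgeR, DESeq2 or limma, and none was a DEG by edgeR over all 6 samples.

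The other 4 lists held fewer calls. Of 30 further hydrolases tested, GALNS and MAN2B2 were higher and ARSK was lower, a share of 10.0% beside 11.2% of all genes. Their median log2 fold change was 0.09, or 0.04 without MA PANC-1 2 and with the GC trend removed. ARSK, a sulfatase, was at 3.86, 3.29 and 5.15 FPKM with MA and at 5.67, 6.29 and 7.02 FPKM without, with no overlap (-0.60 ± 0.17, SE, edgeR p of 0.00928, adjusted p 0.388). ARSK kept a p under 0.05 with any 1 sample left out. GALNS and MAN2B2 were at 0.33 ± 0.12 and 0.35 ± 0.12 on the log2 scale, and lost their calls without MA PANC-1 1, PANC-1 1 or PANC-1 3, GALNS also without PANC-1 2. Of 27 further membrane proteins and transporters, CLCN7, the chloride and proton exchanger, and SIDT2 were higher (0.37 ± 0.13 and 0.40 ± 0.15, edgeR p of 0.0257 and 0.0317, adjusted p 0.429 and 0.432), while MFSD12 and the abundant LAPTM4A did not pass the test. Both calls (7.41% of the list) were lost without MA PANC-1 2, PANC-1 2 or PANC-1 3. Of the 10 genes for sorting enzymes to lysosomes, 0 passed by edgeR as fitted here, and the alternatives over all samples or with 1 left out called from 0 to 2, with 2 by DESeq2 and 1 by limma. The mannose 6-phosphate receptor M6PR was at 65.2, 54.1 and 59.9 FPKM with MA and at 26.8, 25.7 and 59.9 FPKM without, PANC-1 3 being level with the MA samples (0.71 ± 0.32, edgeR p of 0.0582, adjusted p 0.459). Without PANC-1 3, the control level with the MA samples, M6PR was at 1.22 with an unadjusted edgeR p of 2.66e-05. The adjusted p of that fit is not given. Of 23 regulators of mTORC1 and TFEB, RRAGC, a GTPase that recruits mTORC1 to lysosomes, was higher (0.34 ± 0.12, edgeR p of 0.0280, adjusted p 0.431), a call lost without MA PANC-1 3, PANC-1 1 or PANC-1 2. AKT1S1, an inhibitory subunit of mTORC1, was lower, at 15.7, 13.6 and 16.7 FPKM with MA and at 19.3, 19.2 and 18.9 FPKM without (-0.29 ± 0.08, edgeR p of 0.0113, adjusted p 0.388), and kept a p under 0.05 with any 1 sample left out. The calls of RRAGC and AKT1S1 were 8.70% of their list, beside 11.2% of all genes. Over the 112 tested genes with the KEGG term Lysosome, which include 36 of the members, 13 were higher and 3 lower at an unadjusted p under 0.05, or 14.3% beside 11.2% of all genes, and the median log2 fold change was 0.09. Without the members the share was 10.5% of 76 genes.

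**Figure D5:**
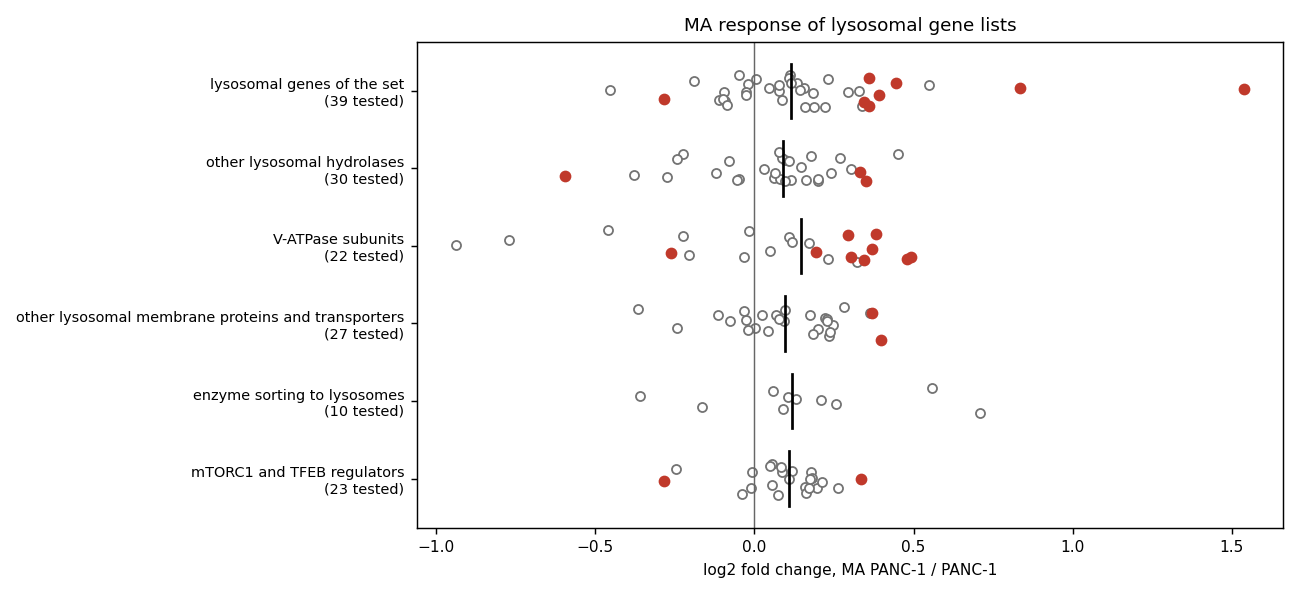
Log2 fold change of MA PANC-1 over PANC-1 (edgeR) of each tested gene of the lysosomal set and of 5 other lists, filled red where the unadjusted p is under 0.05, with the median of each list as a black bar. The medians lie between 0.09 and 0.15, and the V-ATPase subunits hold 9 filled points of 22.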

How the data were processed

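Per the labels, poly(A) RNA of 6 PANC-1 samples was sequenced as paired-end, strand-marked libraries. Processing notes of the submitters name cutadapt 1.9, HISAT2 2.0.4, StringTie 1.3.4d, edgeR and DESeq2. The authors deposited 1 table with an FPKM value and an estimated count per gene and sample. The FPKM deposited for a gene without a count was mostly 0.0001, and the estimated counts deposited were whole numbers without normalization. The genome build is not given in the sources used here, but 58552 of 58825 identifiers occur in GENCODE 29 (GRCh38), 58468 of them at overlapping positions, so positions of genes were printed as deposited. Whether counting used the strand is not given in the sources used here, and 11 members overlap a gene with counts on the same strand.

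Genes averaging 0.1 FPKM or more were tested by edgeR 4.0.16 (R 4.3.3), TMM normalization and the quasi-likelihood F test, with no covariate, and p-values were adjusted by Benjamini-Hochberg over all 17774 genes. The SE was the size of the log2 fold change divided by the square root of F. In simulated data with 200 changed genes among 17774, this test called 194, 9 of them wrongly, and DESeq2 1.42.0 called 231, 44 of them wrongly. The median log2 sizes estimated there by edgeR were 1.98 and 3.07, larger than that of any member over all 6 samples. Smaller differences were not tested in this way. Alternatives were DESeq2, RLE and upper quartile scaling, filters of none and of 1 FPKM, limma 3.58.1 on log2(FPKM + 0.1), with pseudocounts of 1 and 0.01 as well, the replicate number as a block, removal of the GC trend of each library (span 0.5, genes averaging 100 counts or more) with and without the block, halved counts, each sample left out, and counts summed with overlapping genes. Promoter windows were those of RefSeq (GRCh38.p14), and printed stretches end at most 10 bases past the deposited gene start.

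The members and lists were chosen with earlier results of these data known. Values per sample are given for members with an unadjusted p under 0.05, the transcription factors, the 5 most abundant members, LAMP1, LAMP2 and MCOLN1, and in each other list the 3 genes with the smallest p and the most abundant one may be named. Per-sample values of NEU1, IDS, SCARB2 and CTSS, and the names of all V-ATPase subunits with a p under 0.05, were added after their values were seen. A gene that the rule allows is not reported here.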

Additional observations from a re-analysis of the deposited data

How the results depend on the processing

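Over the 19 alternatives, results of the 8 members with an unadjusted p under 0.05 kept their direction throughout and stayed under 0.05 in 125 of 152 instances. PLA2G15 remained the only member called a DEG in every alternative. The number of members with an unadjusted p under 0.05 was 8, and lay between 3 and 12 with 1 sample left out. The median log2 fold change of the members was 0.114, was 0.058 by limma on log2(FPKM + 1), and lay between 0.061 and 0.222 with 1 sample left out. Members past the adjusted threshold numbered 0 by edgeR and 2 by DESeq2, with an adjusted p of 0.000321 for SMPD1 by DESeq2. Whether these 2 calls by DESeq2 are wrong was not tested. In the other lists 16 genes had an unadjusted p under 0.05, and between 9 and 20 with 1 sample left out, and 24 with the GC trend removed, with or without the replicate block.

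Counts over all genes moved as well. DEGs numbered 342 (569 without a filter, 93 with a filter of 1 FPKM, where fewer genes are tested, 44 by limma on log2(FPKM + 1), which shrinks low genes, and 326 to 534 with 1 sample left out). Genes past the adjusted threshold numbered 7 (263 by DESeq2, 12 with a filter of 1 FPKM, 33 with the GC trend removed, 1 with the GC trend removed and the replicate block, and 3 to 24 with 1 sample left out), and the cause of these shifts was not tested.

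The groups share replicate numbers. Samples of the same number deviated together with correlations of 0.029, 0.050 and 0.072, each under 0.1, so they were treated as sharing only a number, although every sample correlated best with its own. With the replicate block 327 DEGs, 0 genes past the adjusted threshold, 8 members with an unadjusted p under 0.05 and 1 member called a DEG were found. Among the members TFE3 then had an edgeR p of 0.0195 and CTSC one of 0.0552, IDS changed sign, and 2 genes for enzyme sorting had a p under 0.05. Summing over identifiers of 1 name could not change a member, since each has 1 identifier. The estimated counts are not whole reads, so no counting interval is given, and the spread between 3 samples sets the width of the intervals.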
